A study of Mus musculus with 2 samples.

Results

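Transcripts of 8 inflammatory and regulatory cytokine genes, Tnf, Il6, Il10, Il12b, Il27, Ebi3, Il15 and Tnfsf10, were followed through the immune cells of metastatic lungs. The genes were chosen by name, with earlier results of these data known, so counts of them past a cutoff are descriptive. All 8 were found in both count matrices under the same Ensembl identifier and symbol, among 29413 identifiers that the matrices share. The tested library held niche immune cells and the other held distal lung immune cells, with 1 library each. Both came from metastatic lungs of female Balb/c mice at day 7 after labelling-4T1 cells had been given into the bloodstream, so both groups carry tumour cells and no tumour-free lung was compared. 4T1 is a mouse mammary carcinoma line of Balb/c origin that seeds the lung. As background, labelling-4T1 cells secrete a fluorescent protein able to enter nearby cells, so that cells close to a metastasis can be sorted apart from those further off. Cells were taken by fluorescence-activated sorting and profiled with a droplet-based 3′ kit. How old the mice were, how many were used and how the gates were set is not stated in the labels. With 1 library per group there is no replicate, and no test was made between the groups.

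The niche library was deeper. It held 38036915 UMIs (unique molecular identifiers, each standing for 1 captured RNA molecule) over 3242 barcodes, with a median of 10740.5 per barcode. The distal library held 22323465 UMIs over 3945 barcodes, with a median of 5272. After filtering, 3081 niche and 3534 distal cells were kept, and 4 barcode sequences occurred in both. Ptprc, which encodes the pan-leukocyte protein CD45, was detected in 85.8% of niche and 87.2% of distal cells. The cells named endothelial/stromal-like or alveolar epithelial-like, 26 in the niche and 102 in the distal library, had Ptprc in only 11.5% and 11.8% of cells, so the sort also held some non-immune cells. Monocyte/macrophage-like cells made up 72.1% of niche cells and 10.9% of distal cells. Alveolar macrophage-like cells made up 0.260% of niche cells and 32.1% of distal cells. A ratio over all cells therefore mixes the make-up of the sort with the level per cell, which cannot be told apart there, and ratios within a class are given beside it. A further 394 niche cells and 19 distal cells formed a cluster of few UMIs that was left without a name.

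These genes belong to a few linked groups. Tumour necrosis factor, the product of Tnf, and interleukin 6 are acute inflammatory cytokines of macrophages and many other cells, and both are induced through NF-kappaB. Interleukin 10 restrains myeloid cells. Il12b encodes the p40 chain, which pairs with the Il12a product to form interleukin 12 or with the Il23a product to form interleukin 23. Il27 encodes the p28 chain of interleukin 27, whose other chain is the Ebi3 product. Interleukin 15 is shown to T and NK cells on the surface of myeloid cells by its receptor chain, the Il15ra product. Tnfsf10 encodes TRAIL, a ligand that can trigger apoptosis through a death receptor, the Tnfrsf10b product. RNA does not show whether a chain was made, paired or released.

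In GRCm38 (GENCODE M21) Tnf (ENSMUSG00000024401) lies at chr17:35199381-35202007 on the minus strand and has 4 exons. Il6 (ENSMUSG00000025746) lies at chr5:30013114-30019981, Il10 (ENSMUSG00000016529) at chr1:131019845-131024974, Il12b (ENSMUSG00000004296) at chr11:44400063-44414033, Ebi3 (ENSMUSG00000003206) at chr17:55952640-55957022 and Tnfsf10 (ENSMUSG00000039304) at chr3:27317028-27342427, all on the plus strand. Il27 (ENSMUSG00000044701), at chr7:126589010-126594941, and Il15 (ENSMUSG00000031712), at chr8:82331632-82403222, are on the minus strand. None of the 8 shares exonic bases on its own strand with another annotated gene, so gene overlap does not blur their counts.

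RefSeq promoter sequence (GRCm38.p6) was at hand for 5 of the 8 genes. It is shown for Tnf, Il6, Il12b and Ebi3, because NF-kappaB sites are textbook features of inflammatory promoters and these 4 genes differed widely in which cells held them. Each line is the 250 bases before the transcription start, 5′ to 3′ on the gene's strand. Capitals mark matches to a form of the NF-kappaB site, GGG, any 2 bases, TT, any base and CC, searched on both strands.
Tnf (chr17:35202008-35202257, minus strand): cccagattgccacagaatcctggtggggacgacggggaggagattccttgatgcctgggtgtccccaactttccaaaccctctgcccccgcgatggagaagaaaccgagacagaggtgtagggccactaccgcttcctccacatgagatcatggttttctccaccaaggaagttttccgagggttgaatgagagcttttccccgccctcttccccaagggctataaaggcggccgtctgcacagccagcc
Il6 (chr5:30012864-30013113, plus strand): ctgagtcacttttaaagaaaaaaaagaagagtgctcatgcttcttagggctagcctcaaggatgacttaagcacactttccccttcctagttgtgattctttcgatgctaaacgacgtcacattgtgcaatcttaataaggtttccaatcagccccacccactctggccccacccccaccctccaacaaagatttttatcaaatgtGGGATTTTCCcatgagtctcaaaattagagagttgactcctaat
Il12b (chr11:44399813-44400062, plus strand): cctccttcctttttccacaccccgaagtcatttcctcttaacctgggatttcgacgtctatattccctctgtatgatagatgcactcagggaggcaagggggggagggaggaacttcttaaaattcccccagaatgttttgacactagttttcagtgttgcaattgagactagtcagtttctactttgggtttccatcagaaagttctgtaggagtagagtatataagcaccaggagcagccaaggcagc
Ebi3 (chr17:55952373-55952622, plus strand): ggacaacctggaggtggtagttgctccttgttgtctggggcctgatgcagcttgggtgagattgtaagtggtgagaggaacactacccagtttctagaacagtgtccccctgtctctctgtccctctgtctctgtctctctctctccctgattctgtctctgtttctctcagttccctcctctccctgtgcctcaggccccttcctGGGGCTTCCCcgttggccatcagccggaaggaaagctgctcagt
The motif was in the Il6 window, as GGGATTTTCC, and in the Ebi3 window, as GGGGCTTCCC, each beginning 44 bases before the start. It was not in the Tnf, Il12b or Tnfsf10 windows, which says only that these letters are not there. Of 32851 promoter windows of the same length, 1350 (4.11%) held it. This form of the motif was chosen after the sequences had been seen and a looser form tried. The share over all windows is therefore no test of enrichment. A C/EBP-like motif, TTGC, any 2 bases and AA, was found on either strand in the Il6 window alone of the 5. The window reads TTGTGCAA there, a match on its minus strand 128 bases before the start, and 9.56% of all windows held it. An interferon-response-like motif, GAAA, any 2 bases and GAAA, also searched on both strands, was in none of the 5 windows and in 2.98% of all. A match describes the sequence and shows no binding.

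Over all cells the largest differences were in opposite directions. Il27 and Il12b were higher in the niche library by more than 1.5-fold, and Il6 and Il15 lower. Levels are UMIs per 1000000 UMIs of the shared genes (CPM), and a log2 ratio of niche over distal CPM carries a 95% interval for counting error only. The niche level of Il27 was 20.5 CPM and the distal level 8.50 CPM (log2 ratio 1.27, 1.04 to 1.51). For Il12b they were 25.8 CPM and 12.8 CPM (1.01, 0.81 to 1.21). Il6 was at 1.92 CPM in the niche and 7.02 CPM in the distal library (-1.86, -2.29 to -1.46). Il15 was at 7.18 CPM in the niche and 12.3 CPM in the distal library (-0.78, -1.03 to -0.53). Tnf, Il10, Ebi3 and Tnfsf10 differed by less than 1.5-fold. For Tnf the levels were 43.0 CPM in the niche and 42.7 CPM in the distal library (0.01, -0.11 to 0.13). The log2 ratio was -0.32 (-0.67 to 0.04) for Il10, -0.26 (-0.43 to -0.08) for Ebi3 and -0.33 (-0.60 to -0.07) for Tnfsf10. The 2 of 8 genes that were higher stand against 9.2% of 13022 genes with at least 20 UMIs, and the 2 that were lower against 32.2%. The median log2 ratio was -0.29 over the 8 genes and -0.249 over all tested genes.

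**Figure D1:**
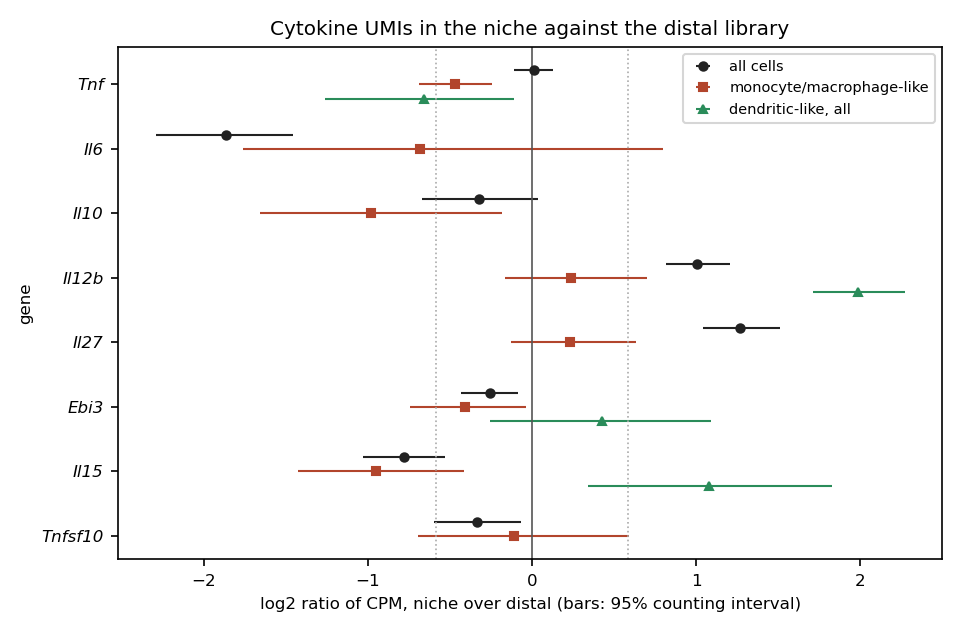
Log2 ratio of CPM, niche over distal library, for each cytokine gene (rows) in all cells (black circles), monocyte/macrophage-like cells (red squares) and all dendritic-like cells (green triangles), where a class held at least 20 UMIs; bars are 95% counting intervals and dotted lines mark 1.5-fold. Il27 stands at 1.27 over all cells and at 0.23 within the monocyte/macrophage-like class, and Il15 lies on opposite sides of 0 in the macrophage and pooled dendritic classes.

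Within the monocyte/macrophage-like class, which held 2221 niche and 384 distal cells, none of the 8 genes was higher in the niche by 1.5-fold, against 7.69% of 11646 genes. Il6, Il10 and Il15 were lower, 3 of 8 against 11.3% of genes. For Il6 this rested on 7 distal UMIs, with an interval that includes 0 (-1.76 to 0.80). At 2-fold none of the 8 was lower, against 4.38% of genes, and none higher, against 3.49%. The median log2 ratio was -0.44 over the 8 genes and -0.019 over all genes tested in the class. Niche cells of the class had 21.6 CPM of Il27 and distal cells 18.3 CPM, with an interval that includes 0 (0.23, -0.13 to 0.64). Niche cells of the class had 17.0 CPM of Il12b and distal cells 14.3 CPM (0.24, -0.17 to 0.70). The all-cell differences of Il27 and Il12b were thus not seen at that size inside the class. The class was made up differently in each library. Cluster 0, led by Ly6i, Cfb and Cxcl9, held 50.5% of its niche cells and 21.9% of its distal cells, and cluster 5, led by Ly6i, Apoe and Ms4a7, held 7.25% of its niche and 39.3% of its distal cells.

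**Figure D2:**
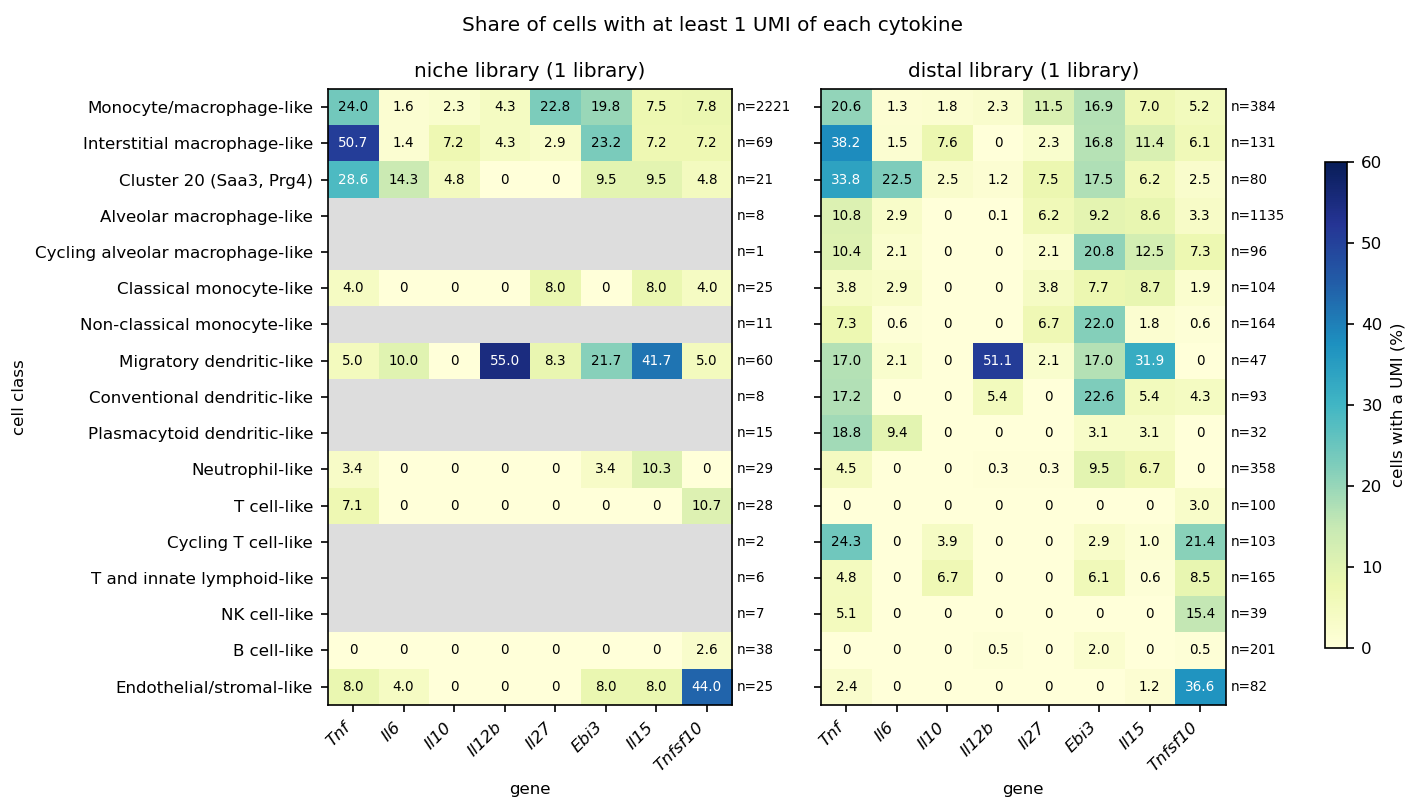
Percent of cells with at least 1 UMI of each cytokine gene (columns) in each cell class (rows), niche library in the left panel and distal library in the right; classes with fewer than 20 cells in a library are grey, and n is the number of cells. Migratory dendritic-like cells stand out for Il12b (55.0% niche, 51.1% distal), interstitial macrophage-like cells for Tnf (50.7% niche, 38.2% distal) and endothelial/stromal-like cells for Tnfsf10 (44.0% niche, 36.6% distal).

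Tnf was carried most widely. At least 1 UMI was found in 647 of 3081 niche cells (21%) and 410 of 3534 distal cells (11.6%), at almost the same CPM, and niche cells were deeper. When every cell was thinned to 3000 UMIs, leaving out shallower cells, the expected shares were 8.87% of niche and 8.03% of distal cells. Among classes of at least 20 cells, the Folr2-led interstitial macrophage-like cells had the highest share. It was 50.7% in the niche (35 of 69 cells, exact Clopper-Pearson 95% bounds 38.4 to 63.0%) and 38.2% in the distal library (50 of 131 cells, 29.8 to 47.1%), and after thinning to 3000 UMIs 27.3% in the niche and 28.3% in the distal library. Their Tnf level was 219 CPM in the niche and 163 CPM in the distal library (0.42, 0.08 to 0.76). That difference rested on few cells, since 5 niche cells with 10 or more UMIs held 62.3% of the class's niche UMIs and 1 distal cell 8.33% of its distal UMIs. Without those 6 cells the levels were 94.4 CPM in the niche and 151 CPM in the distal library, and the log2 ratio turned to -0.67 (-1.14 to -0.23). That cutoff is on the UMIs of Tnf itself and was not adjusted for depth, so at an equal level it leaves out more of the deeper cells. Median depths in the class were 9240 UMIs in the niche and 5625 in the distal library. The turn shows that few cells set the ratio, and no direction is read from it. In monocyte/macrophage-like cells Tnf was lower in the niche, at 39.8 CPM against 55.1 CPM in the distal library (-0.47, -0.69 to -0.24). In all dendritic-like cells it was at 41.8 CPM in the niche and 66.5 CPM in the distal library (-0.66, -1.26 to -0.11), and in the migratory ones at 21.8 CPM in the niche and 76.6 CPM in the distal library (-1.78, -2.95 to -0.76), from 12 niche and 24 distal UMIs. Plasmacytoid ones were at 11.1 CPM in 15 niche cells and 54.6 CPM in 32 distal cells. Conventional ones went the other way, at 169 CPM in 8 niche cells and 66.0 CPM in 93 distal cells. The pooled ratio therefore also carries the make-up of the dendritic-like cells. In monocyte/macrophage-like cells 10 neutrophil markers summed to 254 CPM in Tnf-positive and 122 CPM in other niche cells. In distal ones the sums were 523 and 112 CPM. The sum was 973 CPM in the 22 niche cells with 10 or more Tnf UMIs and 44.0 CPM in the 2 such distal cells. At least 3 of the markers were in 2.43% of positive and 1.24% of other niche cells, and in 2.53% and 1.31% of distal ones. The markers' part in the Tnf level was not tested.

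Tnf was lower in the niche in 6 of the 7 clusters of this class, with log2 ratios of -0.42 to -3.32 and intervals that include 0 in clusters 5 and 6, and higher in cluster 3. In cluster 3, led by C1qc, C1qa and Mmp13, Tnf was at 64.7 CPM in the niche and 21.6 CPM in the distal library (1.49, 0.53 to 2.91), from 439 niche and 7 distal UMIs. In cluster 12, led by Ccl7 and Ccl2, it was at 32.6 CPM in the niche and 93.3 CPM in the distal library (-1.53, -2.09 to -0.91). In cluster 21, led by Syngr1, Gpnmb and Trem2, it was at 17.7 CPM in the niche and 179 CPM in the distal library (-3.32, -4.30 to -2.43), from 16 niche and 32 distal UMIs. Among the other distal cells, cluster 20, a myeloid cluster led by Saa3, Prg4 and Alox15 that was given no name, had Tnf in 27 of 80 cells (33.8%) at 190 CPM, with 4 of those cells holding 62.7% of its UMIs. Cycling T cell-like cells, led by Pdcd1 and Cd8a, had it in 25 of 103 distal cells (24.3%). Alveolar macrophage-like cells, at 28.2 CPM in 1135 cells, held 26.1% of the distal Tnf UMIs. Their level was below the 42.7 CPM over all distal cells, of which they were 32.1%. In B cell-like cells there was none in 38 niche and 201 distal cells, which allows a share of up to 7.89% and 1.49%. Such limits for a count of 0, here and below, are 3 cells of the total, cover counting error only, and bound the share of cells with a UMI at this depth, not the share that expresses the gene. As a measure of free RNA, endothelial/stromal-like cells had Tnf in 2 of 25 niche and 2 of 82 distal cells, at median depths of 3023 and 2230.5 UMIs. Their level was 27.7 CPM in the niche, from 4 UMIs, and 9.14 CPM in the distal library, from 2 UMIs. The niche level was near the 27.4 CPM of niche macrophage cluster 0, so the low share does not show a low level.

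Il6 was rare and concentrated. It was found in 48 niche cells (1.56%) and 72 distal cells (2.04%), with 72 and 152 UMIs. Cluster 20 held 51.3% of all distal Il6 UMIs, 78 UMIs in 18 of 80 cells (22.5%, 13.9 to 33.2%), at 126 CPM. In the niche the same cluster had only 21 cells, of which 3 held 11 UMIs, at 48.7 CPM. Beyond Saa3 and Prg4, an acute phase protein gene and the gene for a surface lubricant protein, this cluster was led by Alox15, Retnla, Cd209a and Ccl17. Distal alveolar macrophage-like cells held a further 32.2%, as 49 UMIs in 33 of 1135 cells (2.91%) at 5.74 CPM. That level was below the 7.02 CPM over all distal cells, of which these cells were 32.1%. The niche library kept 8 such cells, with no Il6. Monocyte/macrophage-like cells carried little, 1.32 CPM in the niche and 2.0 CPM in the distal library (-0.68, -1.76 to 0.80), the distal level from 7 UMIs, and the ratio was -2.44 when clusters were drawn at resolution 0.6. In migratory dendritic-like cells 6 of 60 niche and 1 of 47 distal cells had a UMI. A single niche endothelial/stromal-like cell held 8 UMIs, 11.1% of the niche total, which put that class of 25 cells at 55.4 CPM. No T cell-like cell had Il6, of 28 niche and 100 distal cells, which allows up to 10.7% and 3.00%.

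Il10 lay in other cells. Among niche classes of at least 20 cells its level was highest in interstitial macrophage-like cells, at 44.6 CPM, where 5 of 69 cells had it (7.25%). Distal interstitial macrophage-like cells were at 38.4 CPM, with Il10 in 10 of 131 cells (7.63%). The log2 ratio in that class was 0.21 (-0.53 to 0.97). In the distal library the level was highest in T and innate lymphoid-like cells, led by Tnfrsf4, Icos, Areg and Ctla4, at 56.2 CPM in 11 of 165 cells (6.67%). Cycling T cell-like cells had 32 UMIs in 4 of 103 cells. The T and innate lymphoid-like cells held 25.0% of distal Il10 UMIs and the cycling T cell-like cells 27.6%. The niche library held only 6 T and innate lymphoid-like cells, 1 of which had 14 UMIs, and 2 cycling T cell-like cells. No Il10 was seen in 1135 distal alveolar macrophage-like cells, which allows up to 0.264%, in 358 distal neutrophil-like cells (up to 0.838%) or in migratory dendritic-like cells, 60 niche and 47 distal. Monocyte/macrophage-like cells were at 2.94 CPM in the niche and 5.71 CPM in the distal library (-0.98, -1.66 to -0.18), the distal level from 20 UMIs in 7 cells. Of those 20, 11 were in the cycling cluster 6, led by Birc5 and Top2a, and without that cluster the log2 ratio was -0.092 (-1.02 to 1.16). Without the cells of the highest 5% of doublet scores it was -0.18. Markers of T cells moved with Il10 there: niche cells of the class with Il10 had 3 or more of 11 T cell markers in 25.5% of cells, against 6.5% of those without. None of the 11 was at 0, their summed level was 142 CPM in niche cells with Il10 and 70.7 CPM in niche cells without, and the cells with Il10 were deeper, at medians of 20029 and 12740 UMIs. In interstitial macrophage-like cells with Il10, 10 of the 11 T cell markers were at 0 in the niche and 10 in the distal library, and no cell had 3. Those were only 5 niche and 10 distal cells, and 1.56% of niche and 1.65% of distal cells of the class without Il10 had 3. The markers summed to 58.2 CPM with Il10 and 30.9 CPM without in the niche, and to 104 and 51.4 CPM in the distal library. No contrast with the monocyte/macrophage-like class is read, and the markers' part in the Il10 signal was not tested.

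Il12b had its highest level in migratory dendritic-like cells in both libraries, and they held 36.5% of its niche UMIs and 47.5% of its distal UMIs. These cells, which leave tissue for the lymph node through the receptor Ccr7, had it in 33 of 60 niche cells (55.0%, 41.6 to 67.9%) and 24 of 47 distal cells (51.1%, 36.1 to 65.9%). Their level was 641 CPM in the niche and 421 CPM in the distal library (0.60, 0.31 to 0.91). Without the 10 niche and 3 distal cells that held 10 or more UMIs each, it was 171 CPM in the niche and 207 CPM in the distal library (-0.28, -0.78 to 0.24). That cutoff was not adjusted for depth, and the niche cells were deeper, at medians of 8542 and 6558 UMIs, so no direction is read from it. Over all dendritic-like classes the log2 ratio was 1.99 (1.72 to 2.27), but migratory cells were 60 of the 83 niche and 47 of the 172 distal dendritic-like cells. In this pooled class 2 of 4 tested genes, Il12b and Il15, were higher in the niche, against 15.1% of 7573 genes, and 1, Tnf, was lower, against 18.2%. The median log2 ratio was 0.75 over the 4 genes and -0.063 over all genes tested.

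Few monocyte/macrophage-like cells had Il12b, but the class was large. They held 57.2% of niche Il12b UMIs, 554 UMIs in 96 of 2221 cells (4.32%), and 18.0% of distal UMIs, 50 UMIs in 9 of 384 cells (2.34%). Thinned to 3000 UMIs the shares were 1.92% of niche and 1.40% of distal cells. The transcript came in large amounts in few cells. In the niche 29 cells with 10 or more UMIs held 68.3% of all Il12b UMIs, and in the distal library 8 cells held 68.3%. The highest cell had 50 UMIs in the niche and 45 in the distal library. Within the class, cluster 3 was at 33.0 CPM in the niche and 6.17 CPM in the distal library, cluster 12 at 34.2 CPM in the niche with no UMI in 33 distal cells, and cluster 6 at 16.3 CPM in the niche with no UMI in 41 distal cells. Cluster 0 went the other way, at 8.51 CPM in the niche and 18.5 CPM in the distal library (-1.18, -1.98 to -0.13), as did cluster 5, with 3 niche and 34 distal UMIs. Few cells set these levels: over the class 17 niche cells held 64.8% of its niche Il12b UMIs, and 1 distal cell, of cluster 5, held 31 of its 50 distal UMIs. Dendritic markers moved with Il12b in the niche: 13.5% of Il12b-positive macrophage-like cells had 3 or more of 8 migratory dendritic markers, against 2.12% of the others, and the share was 35.3% among the 17 cells with 10 or more UMIs. The 8 markers, none at 0, summed to 1730 CPM in positive and 1162 CPM in other niche cells, of which a single marker gave 1626 and 1128 CPM, and to 15353 CPM in niche migratory dendritic-like cells themselves. In the distal library 0 of 9 positive and 1.60% of other cells of the class had 3 such markers, and the sums were 6870 and 1009 CPM, with 4 of the 8 markers at 0 in the positive cells and a single marker giving 6806 CPM. Conventional dendritic markers, 3 or more of 10, were in 56.2% of positive and 30.9% of other niche cells of the class, and in 4 of 9 positive and 19.5% of other distal cells. The positive cells were deeper, at medians of 17678 against 12624 UMIs in the niche and 10207 against 7751 in the distal library. The markers' part in the Il12b signal of this class was not tested. Outside these classes single distal cells held many of the Il12b UMIs, 24 UMIs in 1 alveolar macrophage-like cell and 29 in 1 cell of cluster 15. T cell-like cells had none, of 28 niche and 100 distal cells.

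**Figure D3:**
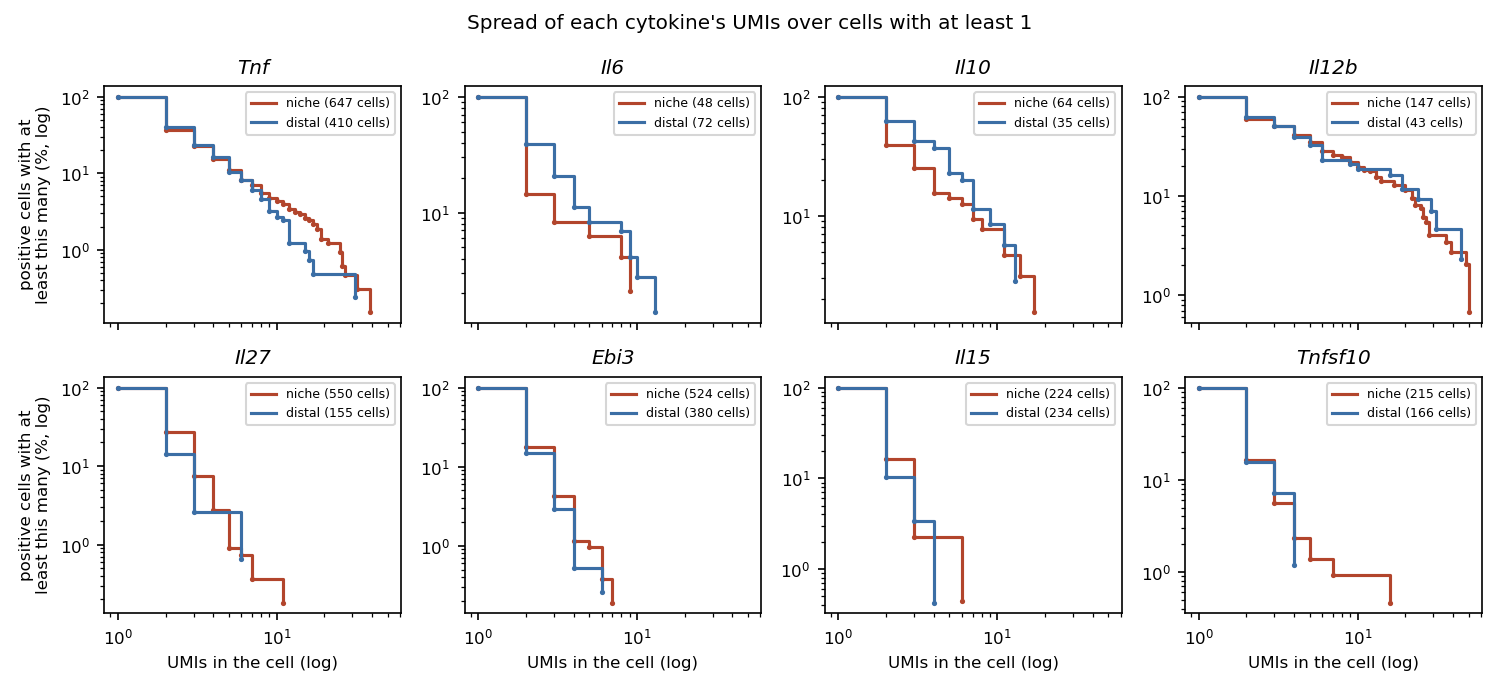
Among cells with at least 1 UMI of a gene, the percent (log axis) holding at least the number of UMIs on the x axis (log axis), niche in red and distal in blue, with the number of positive cells in each legend. Il12b and Tnf reach 50 and 39 UMIs in a niche cell and 45 and 31 in a distal cell, whereas Ebi3 and Il15 stop at 7 and 6 in the niche and at 6 and 4 in the distal library.

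Partner chains of p40 were seldom detected at this depth. In migratory dendritic-like cells with Il12b, Il12a was found in 0 of 33 niche and 0 of 24 distal cells, and Il23a in 1 of 33 niche and 0 of 24 distal cells. In monocyte/macrophage-like cells with Il12b, 2 of 96 niche and 0 of 9 distal cells had Il12a. Over all cells Il12a gave 23 niche and 37 distal UMIs and Il23a 35 niche and 28 distal UMIs, too few for these counts to show that a chain was absent. Ebi3 was found in 11 of 33 Il12b-positive niche migratory cells (33.3%) and in 7.41% of the others, and in 16.7% of positive and 17.4% of other distal migratory cells. Thinned to 3000 UMIs these shares were 14.6% and 7.68% in the niche and 13.1% and 7.52% in the distal library.

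Most niche Il27 UMIs lay in monocyte/macrophage-like cells. Of 770 niche Il27 UMIs, 91.6% lay in that class, where 506 of 2221 cells had it (22.8%, 21.1 to 24.6%). The class level, 21.6 CPM, was close to the 20.5 CPM over all niche cells. That share is therefore near the class's share of all niche UMIs. Of the 184 distal UMIs, 34.8% lay in that class (44 of 384 cells, 11.5%, 8.45 to 15.1%) and 39.7% in alveolar macrophage-like cells (70 of 1135, 6.17%). Alveolar macrophage-like cells were 32.1% of distal cells, so their share of the UMIs is not read as a high level. Distal monocyte/macrophage-like cells were at 18.3 CPM, against 8.50 CPM over all distal cells. Median depth in the class was 12847 UMIs in the niche and 7870 in the distal library, and thinned to 3000 UMIs the shares were 6.60% of niche and 5.13% of distal cells. The highest level was in cluster 11, led by the interferon-induced genes Rsad2, Ifit3 and Ifit2, at 44.3 CPM in the niche (43 of 134 cells) and 65.1 CPM in the distal library (10 of 29 cells). Cluster 0 was at 26.4 CPM in the niche and 18.5 CPM in the distal library. Cluster 21 was low in the niche, at 2.22 CPM, and at 16.8 CPM in the distal library from 3 UMIs. Interstitial macrophage-like cells, high for Tnf and Il10, had Il27 in only 2 of 69 niche and 3 of 131 distal cells. Distal non-classical monocyte-like cells had it in 11 of 164 cells at 23.6 CPM. No B cell-like cell did, of 38 niche and 201 distal cells.

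Ebi3 was found in many classes. It was in 524 niche cells (17.0%) and 380 distal cells (10.8%), shares that ran against the CPM and were 5.2% and 5.35% after thinning to 3000 UMIs. It was in monocyte/macrophage-like cells at 16.7 CPM in the niche and 22.0 CPM in the distal library (-0.41, -0.75 to -0.04). The range over the 7 clusters of that class was 7.76 to 19.5 CPM in the niche and 17.4 to 28 CPM in the distal library. Neutrophil-like cells had been taken as a class of little Ebi3, for a measure of free RNA, yet 34 of 358 distal cells (9.5%) had Ebi3, at 82.3 CPM and a median depth of only 1061 UMIs, and 1 of 29 niche cells did. Of 11 interstitial macrophage markers, 5 were at 0 in the positive distal neutrophil-like cells and 2 in the others, and they summed to 780 CPM in the positive cells and 419 CPM in the others. Their part in this signal was not tested. Non-classical monocyte-like cells were at 69.3 CPM (36 of 164 distal cells). T cell-like cells had none, of 28 niche and 100 distal cells. The chains of interleukin 27 were compared cell by cell. In niche monocyte/macrophage-like cells Ebi3 was detected in 110 of 506 Il27-positive cells (21.7%, 18.2 to 25.6%) and in 19.2% (17.3 to 21.1%) of the others. In the distal library the shares were 18.2% (8.19 to 32.7%) with Il27 and 16.8% (13 to 21.2%) without. Thinned to 3000 UMIs they were 5.93% with Il27 and 4.99% without in the niche, and 12.8% with Il27 and 6.06% without in the distal library.

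**Figure D4:**
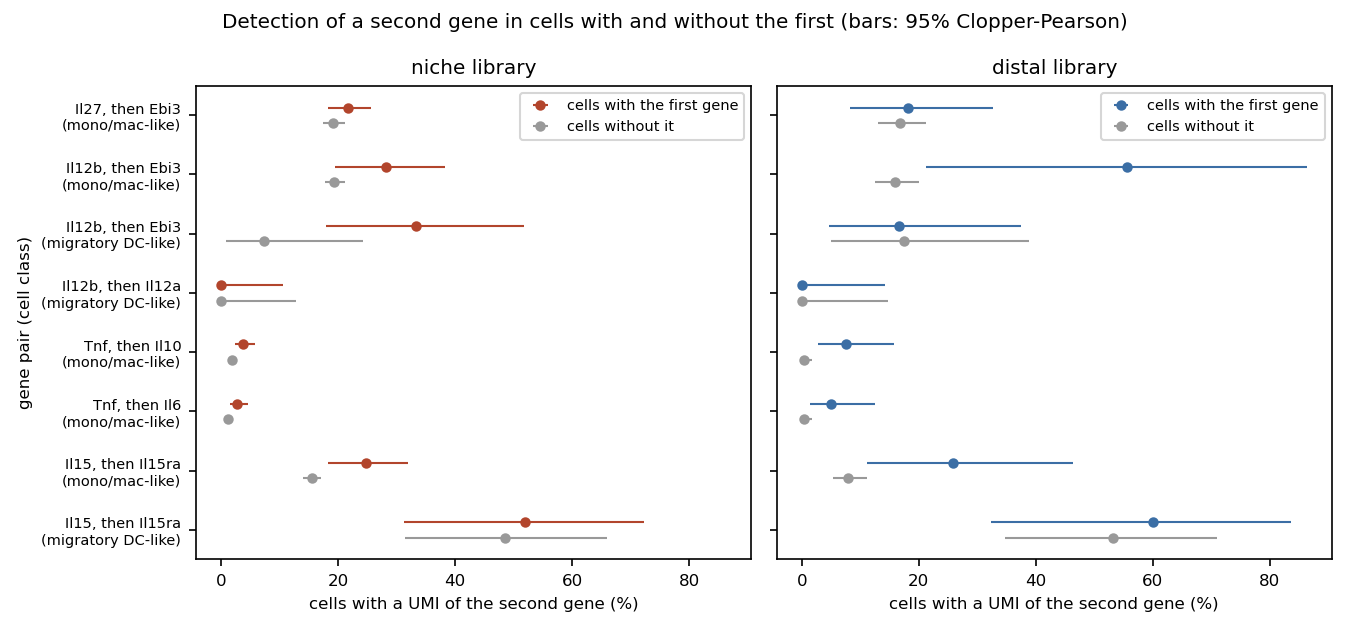
Percent of cells with a UMI of the second gene of a pair among cells with the first gene (coloured, upper point) and without it (grey, lower point), in monocyte/macrophage-like or migratory dendritic-like cells, niche left and distal right; bars are exact 95% Clopper-Pearson intervals. Ebi3 was in 21.7% of niche macrophage-like cells with Il27 and 19.2% of those without, and Il12a in none of the migratory cells with Il12b in either library.

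Some cells held more than 1 of these transcripts. Among monocyte/macrophage-like cells, Il10 was in 3.75% of Tnf-positive and 1.84% of other niche cells, and in 7.59% (6 of 79) of Tnf-positive and 0.328% of other distal cells. Il6 was in 2.81% of Tnf-positive and 1.24% of other niche cells. In distal alveolar macrophage-like cells Il6 was in 11 of 123 Tnf-positive cells (8.94%, 4.55 to 15.4%) and in 2.17% (1.37 to 3.27%) of the others, at median depths of 7454 and 7074 UMIs. In cluster 20, where Il6 was most frequent, the distal shares were 22.2% with Tnf and 22.6% without, and 5.4% and 9.68% after thinning to 3000 UMIs. In interstitial macrophage-like cells Il10 was in 2 of 35 Tnf-positive niche cells and 3 of 50 Tnf-positive distal cells, of 5 niche and 10 distal cells with Il10 in the class. Il27 was in 18 of 51 Il10-positive niche macrophage-like cells (35.3%) and in 22.5% of the others, and after thinning to 3000 UMIs in 7.81% and 6.60%. Thinned to 3000 UMIs, Il10 was in 1.76% of Tnf-positive and 0.481% of other niche macrophage-like cells, and in 3.55% and 0.59% of distal ones. Positive niche cells of this class were deeper in each pair given here, with medians of 14977 against 12476 UMIs for Tnf.

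Il15 was most frequent in migratory dendritic-like cells, in 25 of 60 niche cells (41.7%, 29.1 to 55.1%) and 15 of 47 distal cells (31.9%, 19.1 to 47.1%). Their level went the other way, 63.6 CPM in the niche and 76.6 CPM in the distal library (-0.28, -1.06 to 0.54), so no order is read. Over all dendritic-like cells Il15 was at 41.8 CPM in the niche and 19.8 CPM in the distal library (1.08, 0.34 to 1.83), a difference not seen among migratory cells alone. In monocyte/macrophage-like cells it was lower in the niche, at 6.10 CPM against 11.7 CPM in the distal library (-0.95, -1.43 to -0.42). Interstitial macrophage-like cells were at 6.55 CPM in the niche and 19.8 CPM in the distal library (-1.50, -3.40 to -0.08), from 5 niche and 16 distal UMIs. Among the 4 genes tested in that class Il15 was the 1 past 1.5-fold, against 9.29% of 6468 genes lower and 14.8% higher, and the medians were 0.03 over the 4 and 0.082 over all genes tested. The interferon-led cluster 11 had the highest macrophage level, 29.3 CPM in the niche (30 of 134 cells) and 43.4 CPM in the distal library (6 of 29 cells), whereas cluster 0 was at 4.33 CPM in the niche and 12.4 CPM in the distal library. The distal alveolar macrophage-like cluster 28, led by Ifit1bl1, Slc39a2, Slc7a2, Car4 and Rsad2, had Il15 in 7 of 28 cells at 37.6 CPM. Distal neutrophil-like cells had it in 24 of 358 cells at 54.8 CPM, and niche ones in 3 of 29. T cell-like cells had none, of 28 niche and 100 distal cells. The presenting receptor Il15ra was found in 24.7% of Il15-positive and 15.5% of other niche macrophage-like cells, and in 25.9% of positive (7 of 27, 11.1 to 46.3%) and 7.84% of other distal ones. Positive cells were deeper, at medians of 16008 against 12660 UMIs in the niche and 9179 against 7766 in the distal library. Thinned to 3000 UMIs the shares were 6.61% and 4.07% in the niche and 19.1% and 2.67% in the distal library. In migratory dendritic-like cells Il15ra was in 52.0% of positive and 48.6% of other niche cells, and in 9 of 15 positive and 53.1% of other distal cells.

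Tnfsf10 had its highest level outside the haematopoietic cells in both libraries. Endothelial/stromal-like cells, led by Cldn5, Gpihbp1 and Egfl7, had it in 11 of 25 niche cells (44.0%, 24.4 to 65.1%) and 30 of 82 distal cells (36.6%, 26.2 to 48.0%), both at 242 CPM. In the niche 1 of these cells held 16 of the 35 UMIs, at a depth of 25804 UMIs against a class median of 3023. T cell markers were at 0, all 11, in the positive distal cells of this class, and summed to 195 CPM in the other distal cells. In the niche 6 of 11 were at 0 in the positive cells and all 11 in the others. They summed to 154 CPM in positive and 0 CPM in other niche cells, and 9.09% and 0% of these cells had 3 or more. The markers' part in the Tnfsf10 signal was not tested. Cycling T cell-like cells had Tnfsf10 in 22 of 103 distal cells (21.4%) and NK cell-like cells in 6 of 39 (15.4%). In monocyte/macrophage-like cells the level was 6.47 CPM in the niche and 6.85 CPM in the distal library (-0.11, -0.69 to 0.59). Cluster 11 was the highest of its clusters, at 32.0 CPM in the niche (33 of 134 cells) and 30.4 CPM in the distal library (5 of 29 cells), and the other 6 clusters were between 1.89 and 10.1 CPM in the niche. Cluster 28 of the distal alveolar macrophage-like cells was at 51.7 CPM (6 of 28 cells). B cell-like cells had a UMI in 1 of 38 niche and 1 of 201 distal cells.

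**Figure D5:**
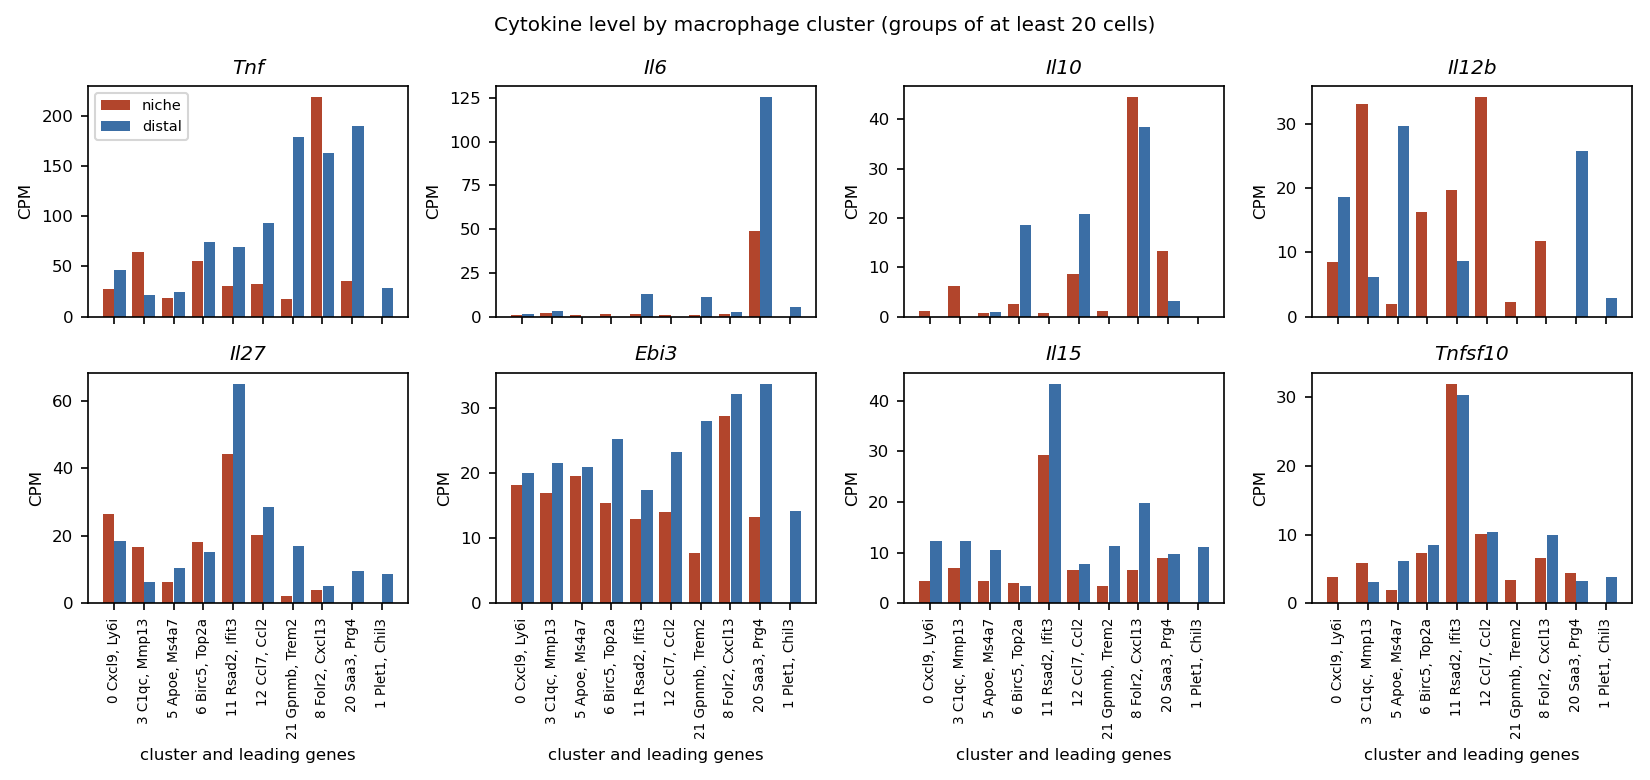
CPM of each cytokine gene in the 7 clusters of the monocyte/macrophage-like class (0 to 21), interstitial macrophage-like cluster 8, cluster 20 and alveolar macrophage-like cluster 1, niche bars (red) left of distal bars (blue); a cluster with fewer than 20 cells in a library has no bar, and the bars carry no error because each is 1 library. Il15 and Tnfsf10 peak in cluster 11 (29.3 and 32.0 CPM in the niche, 43.4 and 30.4 CPM in the distal library), Il10 and niche Tnf in cluster 8, and Il6 in cluster 20.

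Receptors and signalling genes of these cytokines were read in the monocyte/macrophage-like class from lists chosen with earlier results known. Of 15 receptor genes 14 were tested, 1 was higher and 3 were lower in the niche by 1.5-fold, with a median log2 ratio of -0.37, against 7.69% higher, 11.3% lower and a median of -0.019 over all genes tested in the class. Il12rb1, a chain of the receptors for interleukins 12 and 23, was at 11.4 CPM in the niche and 6.56 CPM in the distal library (0.76, 0.18 to 1.47). Il27ra, a receptor chain for interleukin 27, was at 2.15 CPM in the niche and 4.57 CPM in the distal library (-1.12, -1.89 to -0.20). Il6ra, which binds interleukin 6, was at 41.5 CPM in the niche and 63.6 CPM in the distal library (-0.62, -0.82 to -0.41). The decoy TRAIL receptor Tnfrsf23 had 44 niche and 9 distal UMIs (-0.99, -1.98 to 0.29). The TNF receptor genes Tnfrsf1a and Tnfrsf1b were within 1.5-fold (-0.16 and -0.44), as was Il10ra (-0.42). The death receptor gene Tnfrsf10b had 16 niche UMIs and 1 distal UMI and was not tested.

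Of 19 partner subunits and related cytokines 13 were tested, 2 counted as higher and 6 as lower, against the same 7.69% and 11.3%, with a median of -0.26, also when a sum of 0 was set to 3 UMIs. Il1a, an alarmin cytokine, was at 53.4 CPM in the niche and 30.8 CPM in the distal library (0.79, 0.51 to 1.09). Il23a had 24 niche UMIs and no distal UMI, so that it counted as higher through the 0.5 UMI added, and no fold is given since 3 distal UMIs would exceed the niche level. Of the 6 lower, Il18, Ltb and Tnfsf9 had intervals below 0, with log2 ratios of -0.69, -0.86 and -1.09. Il12a, Il2 and Ifng rested on 3, 3 and 6 distal UMIs, with intervals that include 0 (-2.32 to 1.85 for Il12a, -2.50 to 1.70 for Il2 and -1.89 to 0.91 for Ifng). Of 23 signalling genes none was higher and 1 was lower, with a median of -0.16. That gene was Tnfaip3, which encodes the NF-kappaB feedback inhibitor A20, at 44.2 CPM in the niche and 67.1 CPM in the distal library (-0.60, -0.80 to -0.40). Nfkbia, another such inhibitor, was at -0.49 (-0.57 to -0.41).

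The genes whose levels ran most like each cytokine were taken over 19 sums, each a class in 1 library with at least 50 cells, among 9225 genes, by Pearson correlation of log2(CPM + 1). The sums share libraries and depth, and the values are descriptive. Tnf ran with Hk2 (r = 0.84), Skil (0.82) and Cfap126 (0.82). For Il6 they were Mbtd1 (0.81), Saa3 (0.74) and Adora2b (0.74). Il10 went with Lag3 (0.88), Maf (0.84) and Rapsn (0.82). For Il12b they were Klri2 (0.80), Timd4 (0.79) and Mmp25 (0.78), and for Il27 Fcgr4 (0.89), Clec4a3 (0.89) and Cyba (0.88). Ebi3 went with Nckap1l (0.89), Mthfs (0.88) and Glipr1 (0.88), Il15 with Prr5l (0.90), Gabarap (0.90) and Snap23 (0.86), and Tnfsf10 with Eva1b (0.93), Rdx (0.89) and Tmem175 (0.87). With log2(CPM + 10), 9 of these 24 genes were named again.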

How the data were processed

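The deposited matrices hold counts, whole UMIs per gene and barcode that the authors made with Cell Ranger and did not normalize, per the file headers. The headers name software version 6.0.0 for the niche and 3.0.2 for the distal matrix. Per the submitters' processing notes, Cell Ranger 3.02, Seurat 4.1.1, RSEM and Bowtie2 were used with mm10 and GRCm38, without a step for each. Software version and gene list (32285 gene rows niche, 30149 distal) differ with the group and cannot be told apart from it. Genes were joined by Ensembl identifier.

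Barcodes under 200 genes or over 10% mitochondrial UMIs were dropped. Scrublet, within scanpy 1.11.5, called 6 of 6621 cells (0.0906%) and was taken as not having worked. The 6 were removed, and a cluster holding markers of several lineages was called mixed. Both libraries were clustered together on 2000 variable genes without the 8 cytokine genes, with Leiden (leidenalg 0.10.2) at resolution 1.0, from 20 neighbours in 30 principal components, in Python 3.11.15. Clusters were named "-like" from listed markers. A marker was present at 0.15 of its highest cluster level and in 0.1 of cells, and a name needed 0.75 of its markers (0.5 for the endothelial and stromal list). Clusters with 0.4 of the interstitial list were called monocyte/macrophage-like. The thresholds were chosen with the clusters in view.

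UMIs were summed per class and given as CPM of the shared genes. Ratios had 0.5 UMI added, needed 20 UMIs, and carry exact conditional binomial intervals at 95%. Intervals cover counting error only and treat UMIs as independent, although UMIs of 1 gene lay together in single cells. No p-value was computed. The thinned shares are expected values, at 1000 or 3000 UMIs. The ratio step was tested on simulated counts drawn independently, as the intervals assume. That setting holds no UMIs that lie together in single cells, so it does not test the intervals for such genes. The 8 genes were described in full, other genes by the 3 nearest to each and by the receptor and pathway lists. The members and lists were chosen with earlier results of these data known. The promoter motif was chosen after the sequences had been seen and a looser form tried.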

Additional observations from a re-analysis of the deposited data

Results flagged for a closer look

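Tnf was higher in the niche in interstitial macrophage-like cells (log2 ratio 0.42) and lower in the niche in monocyte/macrophage-like cells (-0.47) and in all dendritic-like cells (-0.66), so that counting intervals lay on opposite sides of 0. Whether these classes differ was not tested, since each group is 1 library. The interstitial value turned to -0.67 without 5 niche cells and 1 distal cell that held 10 or more UMIs each, a cutoff not adjusted for the greater depth of niche cells. The dendritic-like classes were mixed differently in each library and did not all go the same way. Conventional ones had Tnf at 169 CPM in 8 niche cells and 66.0 CPM in 93 distal cells. Among migratory ones the log2 ratio was -1.78 (-2.95 to -0.76).

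Il15 was higher in the niche in all dendritic-like cells (1.08) and lower in the niche in monocyte/macrophage-like cells (-0.95) and in interstitial macrophage-like cells (-1.50). This difference was not tested either. Migratory cells were 60 of 83 niche and 47 of 172 distal dendritic-like cells, and among migratory cells alone the log2 ratio was -0.28 (-1.06 to 0.54).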

How the results depend on the processing

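Of the main values recomputed under the alternatives, 141 stayed within the interval of the value reported (counts within 1.5 times), 21 moved and none of their called directions reversed. A reversal was counted only where the main value was past 1.5-fold. Il12b in the monocyte/macrophage-like class, 0.24 in the main setting and -1.18 in the largest cluster alone, thus counted as moved. Some alternatives could change little, as at least 500 genes per barcode left each ratio of that class unchanged. The 141 are therefore no measure of robustness. Outside the main values, leaving out cells of 10 or more UMIs gave -0.28 in place of 0.60 for Il12b in migratory dendritic-like cells and -0.67 in place of 0.42 for Tnf in interstitial macrophage-like cells. Both turned in sign. This cutoff is on the gene's own UMIs without regard to depth, and it leaves out more of the deeper niche cells, so no direction is read from the turned values. Over all cells, Il12b was 0.65 with at most 5% mitochondrial UMIs. With the mean over cells of each cell's own proportion in place of sums, Il12b was 1.77, Ebi3 -0.62 and Tnfsf10 -0.66, and 4 genes in place of 2 were lower by 1.5-fold. In the monocyte/macrophage-like class, resolution 0.6 gave -0.23 for Tnf and -2.44 for Il6. Its largest cluster alone gave -0.78 for Tnf, -1.18 for Il12b, -1.59 for Il15 and 2.29 for Tnfsf10, that for Tnfsf10 from 51 niche and 0 distal UMIs and set by the 0.5 added, so that 1 gene counted as higher in place of 0. Without the highest 5% of doublet scores Il10 was -0.18 and 1 gene in place of 3 was lower, and without the cycling cluster Il10 was -0.092. Without cells of 10 or more UMIs, an alternative chosen after seeing the data, Tnf was -0.77. At 2-fold, receptors counted 0 higher and 1 lower, partners and related cytokines 1 and 1 (the higher being Il23a, with 0 distal UMIs), and signalling genes 0 lower. The cause of these shifts was not tested, beyond the cells each alternative removes. Of the values for shares of cells and nearest genes, 32 moved and 65 did not, mostly with thinning. No paired analysis was possible because each group is 1 library. Genes with few UMIs, such as Il6 and Il10 in macrophage-like cells, are limited by depth.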

Other observations

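The 394 niche cells of the unnamed cluster of few UMIs, at a median of 1027.5 UMIs of the shared genes, also held cytokine transcripts. Tnf was in 28 of them (7.11%) at 48.1 CPM, Il12b in 11 (2.79%) at 42.5 CPM, Il27 in 11 at 19.8 CPM and Ebi3 in 13 (3.30%) at 19.8 CPM, whereas Il6 was in none. The distal cells of the cluster were 19, and 0 of them had Tnf, Il12b or Il27.

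Cluster 15, led by Bpifa1, Scgb3a2, Cxcr2 and Csf3r, was kept apart because the neutrophil markers Cxcr2 and Csf3r were among its leading genes. It had Il27 in 12 of 45 niche cells (26.7%) and 4 of 80 distal cells, at 30.7 CPM in the niche and 9.90 CPM in the distal library, with median depths of 14508 and 5168.5 UMIs. Ebi3 was in 14 of 45 niche and 15 of 80 distal cells of that cluster.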
